A study of Mus musculus with 31 samples.

Results

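The genes of 10 heat shock chaperones were followed through 31 RNA sequencing libraries of phagocytes sorted from mouse hearts. They make up 10 of the 24421 gene symbols in the count tables. Of them, 6 are genes that heat shock or misfolded protein induces (Hspa1a, Hspa1b, Dnajb1, Hsph1, Hspb1 and Hsp90aa1). Another 2 are cytosolic chaperone genes that unstressed cells also use (Hspa8 and Dnaja1), and 2 encode mitochondrial chaperones (Hspd1 and Hspe1). The genes were taken by symbol, and all 10 passed the filter on low counts that left 13039 genes for testing. They were proposed as a set with their values after infarction in view, so the infarction contrast is given for them as a description and nothing is read from its tests.

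The hearts came from Balb/c mice aged 8 to 12 weeks, either after myocardial infarction (MI), made by tying off the left anterior descending coronary artery for good, or in the steady state (SS) with no infarction. From each heart state 4 populations were sorted: CD11c-negative monocyte-derived cells (macrophages), CD11c-positive monocyte-derived cells (moDCs), and the conventional dendritic cells cDC2 and cDC1. Each of the 8 groups holds 4 libraries, except MI cDC2, which holds 3. Groups of both states share one preparation, per the labels' protocols: digestion with Liberase and DNase at 37 °C for 45 minutes, sorting by FACS, and amplification of 4 ng of total RNA with SMART-Seq v4. The time after ligation, the sorting antibodies and whether a library is 1 mouse or a pool of hearts are unknown here, so p-values measure the spread between libraries. Whatever else differed between all MI and all SS hearts cannot be told apart from infarction.

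Heat shock chaperones bind unfolded stretches of protein and help them refold. In cells under heat, oxidants or other protein-damaging stress, heat shock factor 1 (Hsf1) is released from chaperones, forms trimers and switches on genes whose promoters carry heat shock elements, which are inverted repeats of the short unit NGAAN. The cytosolic HSP70 proteins work with J-domain partners such as Dnajb1 and Dnaja1 that bring them clients, and with Hsph1, which exchanges their nucleotide. HSP90 proteins finish the folding of kinases and receptors. In mitochondria Hspd1 forms the chamber and Hspe1 the lid of the folding machine. Warm enzyme digestion, which hearts of both states went through here, is known to raise stress genes in sorted cells.

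Hspa1a and Hspa1b lie 12918 bases apart (between their starts) on the minus strand of mouse chromosome 17, each with 1 exon, at chr17:34969190-34972156 and chr17:34956436-34959238 in GENCODE M21 on GRCm38 (mm10). Their promoters are shown because their reads, and the letters that precede them, are close to identical. The 150 bases before the start, on the minus strand in RefSeq's GRCm38.p6 at chr17:34972157-34972306 and chr17:34959239-34959388, differ at 1 of 150 positions. Capitals mark the GAA and TTC units of each match to the motif GAANNTTC or TTCNNGAA, which is 2 neighbouring units of a heat shock element.
Hspa1a: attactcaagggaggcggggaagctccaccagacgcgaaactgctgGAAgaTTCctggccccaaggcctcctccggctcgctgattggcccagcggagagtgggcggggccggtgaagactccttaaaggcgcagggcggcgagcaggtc
Hspa1b: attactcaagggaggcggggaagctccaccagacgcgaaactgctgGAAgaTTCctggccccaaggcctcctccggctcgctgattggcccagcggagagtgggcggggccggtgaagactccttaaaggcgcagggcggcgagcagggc

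Hspb1, at chr5:135887919-135889563 on the plus strand, carries 2 such matches before its start, given here as the 150 bases at chr5:135887769-135887918. Hspd1 and Hspe1 are read in opposite directions on chromosome 1, with starts 111 bases apart by the gene annotation. One element, shown on the plus strand at chr1:55088053-55088082, stands in the RefSeq window of Hspe1 and in 1 of the 2 RefSeq windows of Hspd1, and the other Hspd1 window holds 0 matches. Hsph1, on the minus strand of chromosome 5, carries an element of 3 units after its start at chr5:149636281-149636310. These 2 short stretches hold the 3-unit motif, GAANNTTCNNGAA or TTCNNGAANNTTC, which contains overlapping 2-unit matches.
Hspb1: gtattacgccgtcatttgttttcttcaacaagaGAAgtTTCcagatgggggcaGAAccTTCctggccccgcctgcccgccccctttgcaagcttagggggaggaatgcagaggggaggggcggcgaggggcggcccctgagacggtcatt
Hspe1 and Hspd1: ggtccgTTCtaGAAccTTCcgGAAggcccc
Hsph1: atgctgcagaTTCtgGAAagTTCtcctcag
RefSeq promoter windows (250 bases before to 50 after a start) were found for 8 of the 10 genes, all but Hspa8 and Hsp90aa1. A 2-unit match stood in at least 1 window of 7 of these 8 genes (all but Dnajb1), where 15.1% of all 32851 windows, and 17% of the 27025 genes with a window, hold one. The 3-unit motif stood in windows of Hspd1, Hspe1 and Hsph1, against 0.603% of all windows and 0.662% of genes. Both strands were searched. A match is a run of letters and not a shown binding site, and none of it tells whether Hsf1 was bound in these cells.

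Each library held between 9148624 and 16531349 reads in genes. By their sums, markers of cDC1, cDC2 and macrophages stood where the labels put them, though not each single marker did. The moDC markers did not set moDCs apart from cDC2. The summed level of 6 cDC1 markers (Xcr1, Clec9a, Batf3, Irf8, Tlr3 and Itgae) was 5316 to 6818 CPM (reads scaled to a common library total) in cDC1 libraries and at most 552 CPM in all others. The 6 cDC2 markers (Cd209a, Sirpa, Irf4, Itgam, Clec10a and Mgl2) summed to 4456 to 6121 CPM in cDC2 and at most 3274 CPM in all others. Of these, Sirpa averaged more in macrophages than in cDC2 (1639 against 1183 CPM in MI, 1234 against 827 CPM in SS). Itgam did so in MI (805 against 749 CPM). The 8 macrophage markers summed to 12604 to 16152 CPM in MI and 14686 to 20078 CPM in SS macrophages. These sums lay above moDCs of the same state (5967 to 7377 CPM in MI, 6471 to 13773 CPM in SS). Cd68, a macrophage marker, averaged more in moDCs than in macrophages (930 against 730 CPM in MI, 850 against 716 CPM in SS). Itgax, which encodes CD11c, averaged 471 CPM in MI moDCs and 40.9 CPM in MI macrophages, and 337 CPM in SS moDCs and 7.5 CPM in SS macrophages. It was higher still in cDC2, at 808 CPM in MI and 602 CPM in SS. The 4 moDC markers (Itgax, Ccr2, Fcgr1 and Mertk) summed to 3267 to 3994 CPM in MI moDCs and 2879 to 3342 CPM in MI cDC2. In SS they summed to 1826 to 2417 CPM in moDCs, 2151 to 2948 CPM in cDC2 and 1554 to 2048.5 CPM in cDC1. The SS libraries numbered 1 and 4 had more reads in no annotated feature (11.6% to 16.9%) than MI libraries (6.85% to 10.9%) or the SS libraries numbered 2 and 3 (6.42% to 9.26%). Calls of the 10 genes that end within this split are given with its values. The 10 genes together took 0.298% to 0.557% of gene reads in MI libraries, against 0.993% to 1.42% in SS numbers 1 and 4 and 0.634% to 1.24% in SS numbers 2 and 3, so every MI library lay below every SS library of either kind. In bulk RNA of sorted cells, fewer cells that make a transcript and less of it per cell cannot be told apart.

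After infarction most of the chaperone transcripts were lower in all 4 populations, with larger median changes for the inducible genes than for the constitutive and mitochondrial ones. The median log2 change (MI minus SS, in edgeR's model) of the 6 inducible genes was -2.56 in macrophages, -3.01 in moDCs, -2.34 in cDC2 and -1.84 in cDC1. The 2 constitutive cytosolic genes had medians of -1.14, -1.10, -1.38 and -0.94 in the same order, and the 2 mitochondrial genes -0.41, -0.42, -0.94 and -0.71. The median over all 13039 genes lay at -0.03 in each population. Lower calls (adjusted p under 0.05) were made for 8 of the 10 genes in macrophages (background 3.37% of all genes), 8 in moDCs (3.32%), 10 in cDC2 (6.63%) and 10 in cDC1 (6.73%). Every MI library lay below every SS library for 8, 9, 10 and 10 of the genes in the same order, where 7.58%, 6.96%, 12.2% and 8.01% of all genes did so. No member was called higher in MI in any population, while 4.01%, 1.52%, 4.41% and 2.16% of all genes were in macrophages, moDCs, cDC2 and cDC1. These shares stand beside the counts only as background, since the genes were proposed on this contrast.

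**Figure D1:**
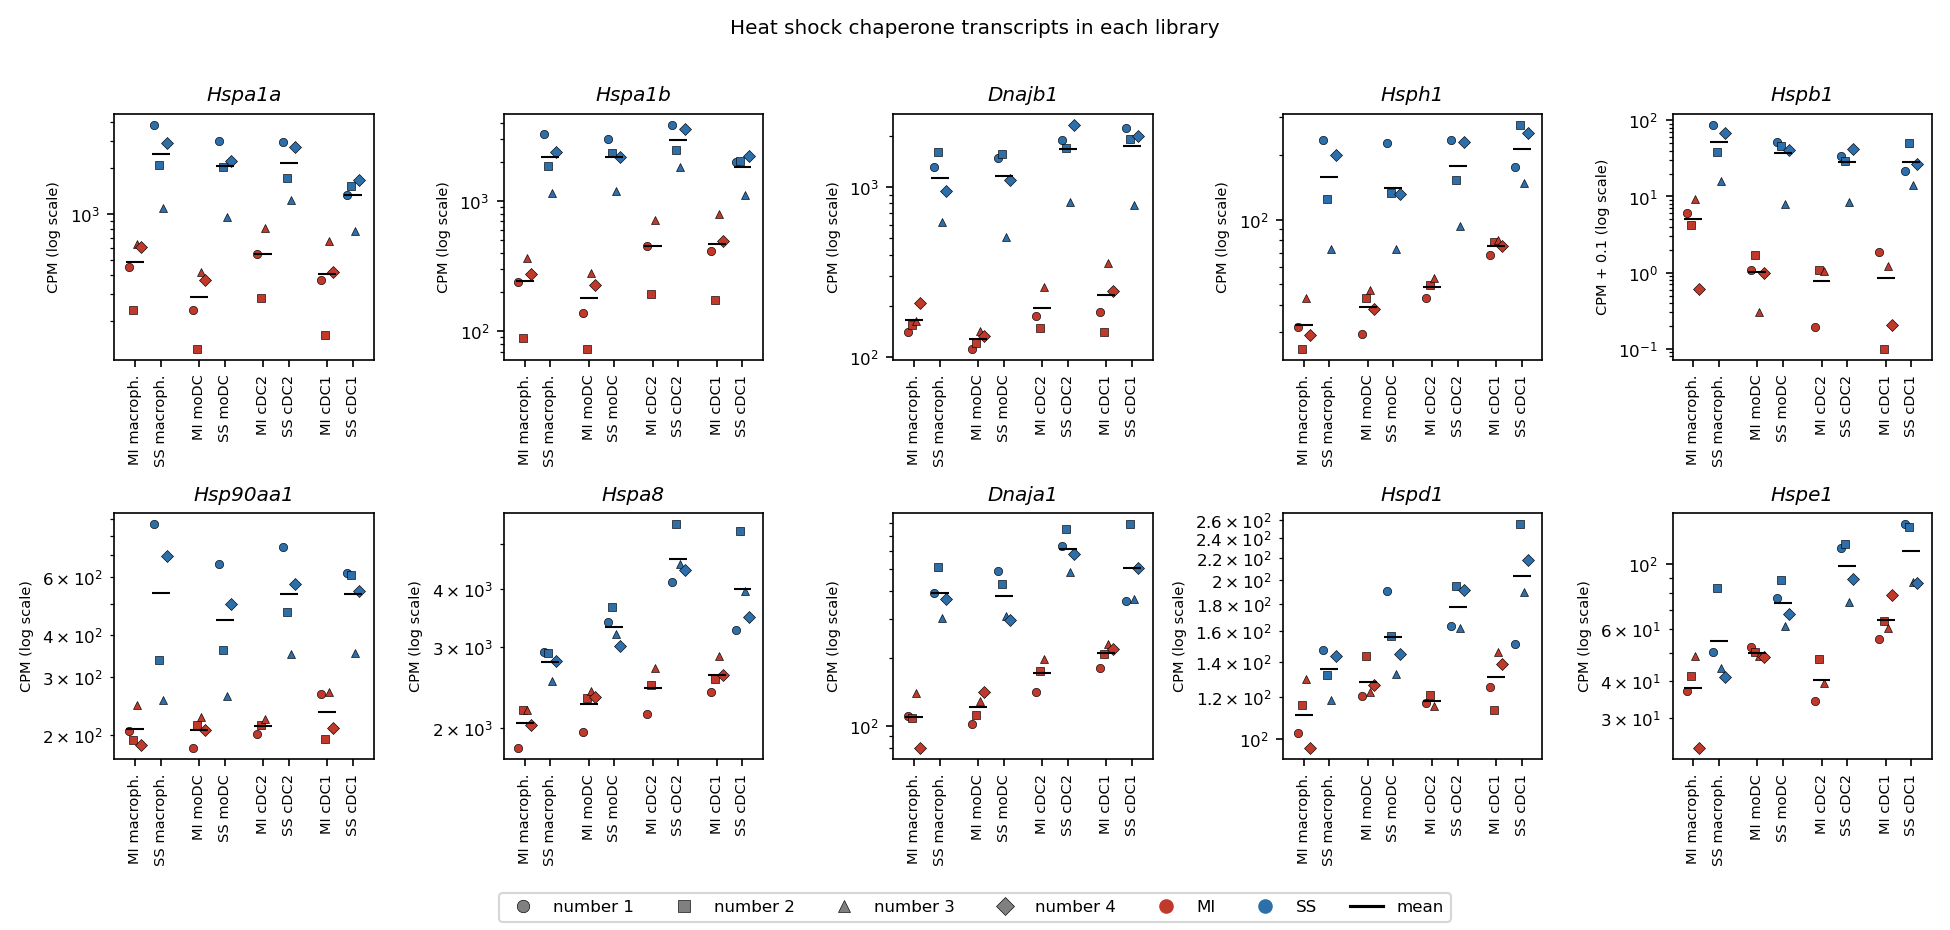
CPM (log scale) of the 10 genes in each of the 31 libraries, with MI in red left of SS in blue for each population, marker shapes for the replicate number and a line at the group mean. For Hspa1b and Dnajb1 every MI point in the figure lies under every SS point, with MI at most 797 and 356 CPM and SS at least 1114 and 509 CPM.

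Hspa1a encodes the main stress-inducible HSP70. In macrophages it had 452, 237, 644 and 609.9 CPM in MI and 3823, 2113, 1099.9 and 2905 CPM in SS. In moDCs the values were 236, 133, 421 and 373 CPM in MI and 2992, 2022, 961 and 2237 CPM in SS. For cDC2 they were 552, 286 and 809 CPM in MI and 2969, 1719, 1239 and 2757 CPM in SS. Within each population the groups did not overlap, and cDC1 came nearest to it, with 373, 163, 666 and 422 CPM in MI and 1342, 1532, 783 and 1685 CPM in SS. The log2 change of Hspa1a was -2.36 ± 0.48 in macrophages, -2.82 ± 0.49 in moDCs, -1.98 ± 0.53 in cDC2 and -1.72 ± 0.47 in cDC1.

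Hspa1b, its near-identical neighbour, had the larger change of the pair in each population. It had 240.0, 88.9, 366 and 274 CPM in MI and 3260.0, 1870.2, 1144 and 2397 CPM in SS in macrophages. The moDC libraries held 138, 73.6, 278 and 228 CPM in MI and 3009.5, 2334, 1189 and 2174 CPM in SS. The cDC2 libraries held 451, 192 and 719.6 CPM in MI and 3829, 2458, 1824 and 3596 CPM in SS, and those of cDC1 413, 174, 797 and 492 CPM in MI and 2009, 2030.3, 1114 and 2202 CPM in SS. The lowest of all 16 SS libraries, at 1114 CPM, stood above the highest of all 15 MI libraries, at 797 CPM. Its log2 change was -3.16 ± 0.52 in macrophages, -3.60 ± 0.53 in moDCs, -2.69 ± 0.57 in cDC2 and -1.97 ± 0.49 in cDC1, which is 12.1-fold lower in MI moDCs by the group means and 3.92-fold lower in MI cDC1.

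Dnajb1, the J-domain partner that loads clients onto stress-induced HSP70, set MI and SS apart in every library as well. Macrophages had 139.6, 153, 162 and 208 CPM in MI and 1316, 1604, 626 and 947 CPM in SS. In moDCs it had 111, 121, 142 and 132 CPM in MI and 1474, 1561, 509 and 1107 CPM in SS. The values in cDC2 were 173, 148 and 258 CPM in MI and 1899.5, 1689, 821 and 2316 CPM in SS, and in cDC1 184, 139, 356 and 245 CPM in MI and 2237, 1911, 786 and 2002 CPM in SS. All 15 MI libraries lay at or below 356 CPM and all 16 SS libraries at or above 509 CPM. Its log2 change was -2.76 ± 0.38 in macrophages, -3.20 ± 0.39 in moDCs, -3.12 ± 0.44 in cDC2 and -2.91 ± 0.39 in cDC1.

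Hspb1 encodes the small heat shock protein HSP27 (HSP25 in mice), which holds unfolded clients and binds actin. It was scarce in MI cells: macrophages had 5.97, 4.08, 9.18 and 0.505 CPM in MI and 86.6, 38.6, 15.9 and 69.1 CPM in SS. In moDCs it had 0.971, 1.58, 0.199 and 0.900 CPM in MI and 52.1, 45.9, 7.81 and 41.2 CPM in SS. The cDC2 libraries held 0.0942, 0.992 and 0.963 CPM in MI and 33.7, 29.1, 8.32 and 41.6 CPM in SS and the cDC1 libraries 1.75, 0, 1.11 and 0.102 CPM in MI and 21.2, 50.5, 14.1 and 26.6 CPM in SS, with no read in MI cDC1 replicate 2, where 3 reads would give 0.296 CPM. Of the 4 MI macrophage libraries, 3 stood above every other MI library. The log2 change was -3.44 ± 0.75 in macrophages, -5.31 ± 0.88 in moDCs, -5.35 ± 1.02 in cDC2 and -5.22 ± 0.90 in cDC1. Without MI cDC1 replicate 1 the cDC1 value was -6.01, and against SS numbers 2 and 3 alone the macrophage change (-2.48) did not pass.

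Hspb1 is also plentiful in muscle and vessel cells, so markers of those cells are given beside it. The summed level of 9 mural cell markers (Rgs5, Notch3, Pdgfrb, Cspg4, Kcnj8, Abcc9, Myh11, Acta2 and Tagln) was 11.1 to 40.5 CPM in MI macrophages against 8.14 to 47.5 in SS macrophages, 14.3 to 17.5 in MI moDCs against 38.8 to 343 in SS moDCs, 7.04 to 11.2 in MI cDC2 against 9.52 to 56.8 in SS cDC2, and 0.819 to 2.96 in MI cDC1 against 92.5 to 327 in SS cDC1. Of the 9, Kcnj8 and Myh11 had no read in MI moDCs, Rgs5 and Kcnj8 had none in MI cDC2, and Cspg4, Kcnj8 and Myh11 had none in MI cDC1, while MI macrophages and all SS groups had reads of each. These sums were lower in MI than in SS cDC1 and moDCs in every library, and overlapped in macrophages and cDC2. The 10 endothelial markers summed to 43.8 to 74.2 CPM in MI and 58.2 to 128 in SS macrophages, 61.4 to 95.5 in MI and 135 to 449 in SS moDCs, 38.2 to 51.1 in MI and 43.0 to 192 in SS cDC2, and 10.2 to 19.2 in MI and 68.9 to 283 in SS cDC1, with no read of Tek and Tie1 in MI cDC1. The 8 cardiomyocyte markers summed to 43.2 to 102 CPM in MI and 109.7 to 148 in SS macrophages, 8.42 to 28.8 in MI and 51.2 to 149 in SS moDCs, 3.47 to 7.81 in MI and 6.18 to 14.3 in SS cDC2, and 2.56 to 9.22 in MI and 11.1 to 32.0 in SS cDC1. Ryr2 had no read in MI macrophages, MI moDCs and MI cDC1, Ttn none in MI cDC1 and Myh6 none in SS cDC2. The part of these cell types in the level of Hspb1 or of the other genes was not tested.

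Hsph1, the HSP110 that exchanges nucleotide on HSP70, averaged 32.1 ± 7.76 CPM in MI and 158 ± 73.2 CPM in SS macrophages (SD, n = 4 each), and had 68.6 to 80.1 CPM in MI and 148 to 276 CPM in SS cDC1. The libraries did not overlap in these nor in moDCs (29.1 to 46.8 CPM in MI, 72.7 to 227 CPM in SS) or cDC2 (43.0 to 53.6 CPM in MI, 93.8 to 236 CPM in SS). Its log2 change was -2.30 ± 0.34 in macrophages, -1.84 ± 0.33 in moDCs, -1.87 ± 0.37 in cDC2 and -1.50 ± 0.32 in cDC1. Hsp90aa1, the inducible cytosolic HSP90, was the inducible gene with the smallest change, at -1.38 ± 0.30 in macrophages, -1.10 ± 0.29 in moDCs, -1.33 ± 0.33 in cDC2 and -1.18 ± 0.30 in cDC1. Its MI libraries were tight, with 186 to 246 CPM in macrophages and 182 to 226 CPM in moDCs, and its SS libraries were wide, with 254 to 869 CPM in macrophages and 262 to 660.1 CPM in moDCs. Against SS numbers 2 and 3 alone the change was -0.51 in macrophages and -0.59 in moDCs, and neither passed. In moDCs its call was lost when MI replicate 1, 2, 3 or 4 or SS replicate 1 or 4 was left out (edgeR adjusted p of 0.0588 to 0.114).

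Hspa8 encodes HSC70, the constitutive HSP70, and was the member with the most reads per exonic length in every MI group, at 477 CPM per kb in MI macrophages against 164 CPM per kb for Hspa1a there. In SS macrophages the order was turned, with 647 ± 42.7 CPM per kb for Hspa8 and 838 ± 390 CPM per kb for Hspa1a (SD, n = 4 each). In the other SS groups Hspa8 stayed above Hspa1a, at 770 against 692 CPM per kb in moDCs, 1080 against 732 in cDC2 and 930 against 450 in cDC1. Hspa1b stood above Hspa8 in SS macrophages (773 CPM per kb) and SS moDCs (776). These orders depend on the exonic length used, which over all annotated exons was 4.301 kb for Hspa8, 2.967 kb for Hspa1a and 2.803 kb for Hspa1b. In CPM without length, Hspa8 was the highest of these genes in both groups. It had 2784 CPM in SS macrophages and 3311 CPM in SS moDCs, where Hspa1a had 2485 and 2053 CPM and Hspa1b 2168 and 2176 CPM. The level of Hspa8 was 2146, 2479 and 2694 CPM in MI cDC2 and 4133, 5516, 4538 and 4395 CPM in SS cDC2. In macrophages it was 1809, 2183, 2182 and 2029.8 CPM in MI and 2915, 2909, 2522 and 2790.3 CPM in SS. The groups did not overlap in any population, and the log2 change was -0.44 ± 0.12 in macrophages, -0.55 ± 0.12 in moDCs, -0.93 ± 0.14 in cDC2 and -0.62 ± 0.12 in cDC1. The macrophage call was lost when MI replicate 1 or 4 or SS replicate 1 or 2 was left out (edgeR adjusted p of 0.0501 to 0.0839).

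Dnaja1, a J-domain partner that works with HSC70, had changes within the range of the inducible genes in all 4 populations. It had 111, 108, 140.4 and 79.9 CPM in MI and 390.3, 507, 302 and 366 CPM in SS in macrophages. In cDC1 it had 181, 209, 230.4 and 221 CPM in MI and 359, 787, 368 and 506 CPM in SS. No MI library reached an SS library in any population. Its log2 change was -1.84 ± 0.22 in macrophages, -1.65 ± 0.22 in moDCs, -1.83 ± 0.24 in cDC2 and -1.26 ± 0.21 in cDC1.

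The mitochondrial pair had the smallest median change of the 3 classes in each population. Hspd1 (HSP60) had 103, 116, 130.1 and 96.2 CPM in MI and 148, 132, 118 and 144 CPM in SS in macrophages, where the groups overlapped, and 121, 144, 123 and 127 CPM in MI and 191, 156, 133 and 145 CPM in SS in moDCs, where they overlapped too. In cDC2 the values were 117, 121 and 115 CPM in MI and 164, 194, 163 and 191 CPM in SS, with no overlap. Its log2 change was -0.28 ± 0.13 in macrophages, -0.28 ± 0.13 in moDCs, -0.59 ± 0.15 in cDC2 and -0.63 ± 0.13 in cDC1. Hspe1 (HSP10), the lid of the same chamber, had 34.2, 47.5 and 39.3 CPM in MI and 114, 117, 74.3 and 89.4 CPM in SS in cDC2 and 37.1, 41.6, 48.7 and 23.6 CPM in MI and 50.2, 83.1, 44.3 and 41.3 CPM in SS in macrophages. The cDC2 groups were apart and the macrophage groups were not. Its log2 change was -0.54 ± 0.21 in macrophages, -0.56 ± 0.21 in moDCs, -1.29 ± 0.23 in cDC2 and -0.78 ± 0.21 in cDC1, and neither gene passed in macrophages or moDCs. In cDC1 the call of Hspe1 was lost when MI replicate 1 or 3 or SS replicate 1 or 2 was left out (edgeR adjusted p of 0.0502 to 0.0631).

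**Figure D2:**
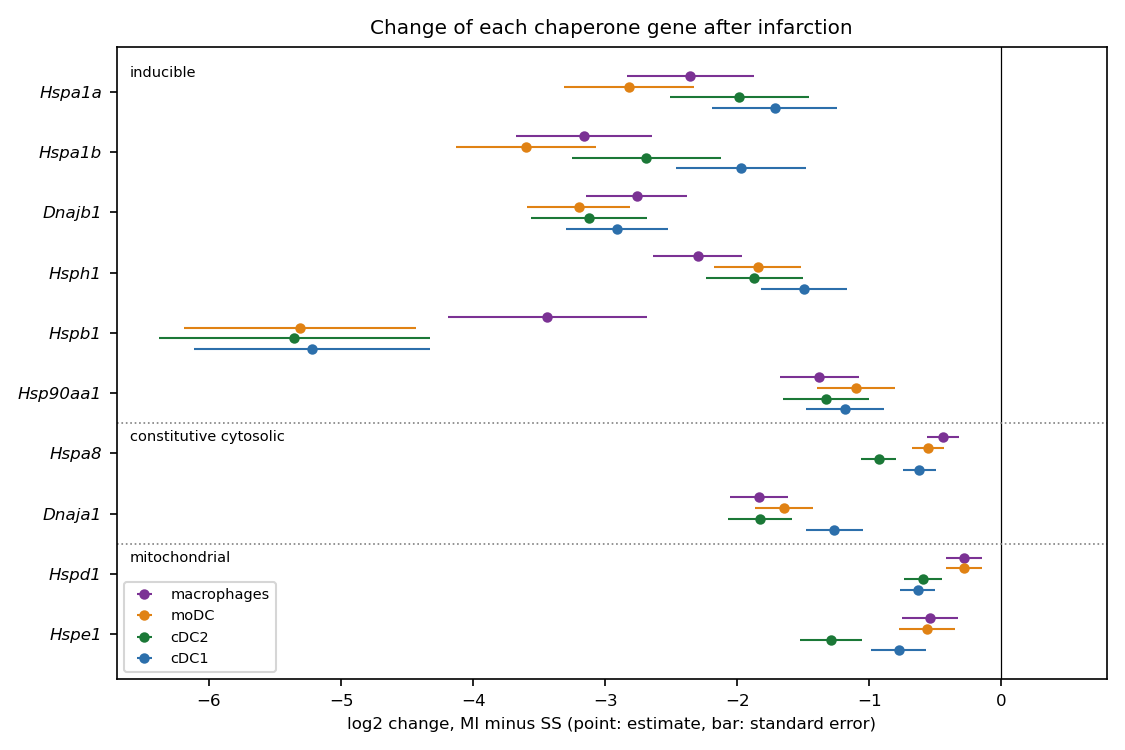
Log2 change (MI minus SS, edgeR) of each gene in the 4 populations, with its standard error, grouped by class. Hspb1 lies farthest to the left, at -5.35 in cDC2, and Hspd1 nearest to 0, at -0.28 in moDCs.

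A difference of the change among the 4 populations was not detectable for any of the 10 genes. In an edgeR F test of an infarction effect that differs among them, 0 of the 10 were called, where 6.80% of all genes were, and 0 had an unadjusted p under 0.05. Adjusted p ran from 0.321 (Hspa8) to 0.974 (Hsp90aa1), the size of such a difference being limited by 3 or 4 libraries a group. The fit held no replicate block, so the spread between replicate numbers stayed in its error. Within the SS split, 5 of 10 genes were called lower in macrophages against SS numbers 2 and 3 alone (Hspa1a, Hspb1 and Hsp90aa1 no longer passed). In moDCs Hsp90aa1, in cDC2 Hspa1a, and in cDC1 Hspa1a, Hspa1b and Hspe1 also no longer passed against numbers 2 and 3, and all kept their negative sign. The log2 changes (edgeR adjusted p) in macrophages were -1.73 (0.0658) for Hspa1a, -2.48 (0.107) for Hspb1 and -0.51 (0.0834) for Hsp90aa1. They were -0.59 (0.0609) for Hsp90aa1 in moDCs and -1.43 (0.138) for Hspa1a in cDC2. In cDC1 they were -1.51 (0.14) for Hspa1a, -1.75 (0.124) for Hspa1b and -0.77 (0.0693) for Hspe1. Without 1 library Hspa1a did not pass in cDC2 (MI replicate 1 or 2, edgeR adjusted p = 0.0655 and 0.0983) or in cDC1 (MI replicate 1, 2 or 4 or SS replicate 4, 0.05 to 0.0777).

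Levels of the chaperones in the 4 populations of hearts of one state were compared next, a contrast on which the genes were not proposed. In MI hearts the 6 inducible genes had 5 calls in 36 tests between pairs of populations, and the other 4 genes had 6 calls in 24. Over all genes, 10.1% to 45.4% were called in these MI pairs. With the replicate number as a block, more inducible calls were made in MI. Hspa1b was then higher in MI cDC2 than in MI moDCs (1.44, edgeR adjusted p = 1.04e-08) and than in MI macrophages (1.01, 4.76e-07). It was also higher in MI cDC1 than in MI macrophages (0.93, 1.36e-07). In SS hearts the inducible genes had 0 calls in 36 tests (0 with an unadjusted p under 0.05, 0 by DESeq2), against 12 with the replicate number as a block. The other 4 had 11 calls in 24 tests, each higher in cDC1 or cDC2. Over all genes, 12.9% to 42.8% were called in the SS pairs. Standard errors were larger for the inducible genes, so the counts of the inducible and the other genes are not compared. Between SS cDC1 and macrophages, Hspa1a differed by -0.90 ± 0.46 on the log2 scale and was not called. Hspd1, at 0.59 ± 0.13, was called there. Of the 22 calls of members in both states, 10 held whichever 1 library was left out.

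In MI hearts the inducible Hsph1 was higher in cDC1, at 75.6 ± 5.12 CPM, than in macrophages, at 32.1 ± 7.76 CPM (SD, n = 4 each), with every cDC1 library above every macrophage library (log2 difference 1.24 ± 0.33, edgeR adjusted p = 0.00278). Dnaja1 was higher in MI cDC1 than in MI macrophages (log2 difference 0.94 ± 0.21, edgeR adjusted p = 0.000592) and than in MI moDCs (log2 difference 0.79 ± 0.21, edgeR adjusted p = 0.00386), as was Hspe1 against macrophages (log2 difference 0.78 ± 0.21, edgeR adjusted p = 0.0028). These 4 calls held without any 1 library.

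The remaining 7 calls in MI hearts did not. Hsph1 was higher in MI cDC1 than in MI moDCs (log2 difference 0.94 ± 0.33, edgeR adjusted p = 0.0239), but not without MI moDC replicate 1 (0.0741). Hspa1b was higher in MI cDC1 than in MI moDCs (log2 difference 1.39 ± 0.49, edgeR adjusted p = 0.0279), but not without any one of MI moDC replicates 1 and 2 and MI cDC1 replicates 3 and 4 (0.0502 to 0.128). These fits took no account of the replicate number. Within each number its cDC1 library lay above its moDC library (413 and 138, 174 and 73.6, 797 and 278, and 492 and 228 CPM). Hspa8 was higher in MI cDC1 than in MI macrophages (log2 difference 0.34 ± 0.12, edgeR adjusted p = 0.0214), but not without MI macrophage replicate 1 or MI cDC1 replicate 3 (0.0701 and 0.0652). Hspe1 was higher in MI cDC1 than in MI cDC2 (log2 difference 0.68 ± 0.23, edgeR adjusted p = 0.0251), but not without any one of MI cDC2 replicates 1 and 3 and MI cDC1 replicate 4 (0.0768 to 0.12). Dnaja1 was higher in MI cDC2 than in MI macrophages (log2 difference 0.65 ± 0.23, edgeR adjusted p = 0.0341), but not without any one of MI cDC2 replicates 2 and 3 and MI macrophage replicates 1, 2 and 4 (0.0588 to 0.153). Hspb1 was lower in MI cDC2 than in MI macrophages (log2 difference -2.81 ± 1.01, edgeR adjusted p = 0.0404), but not without any one of MI cDC2 replicates 1, 2 and 3 and MI macrophage replicates 1 and 3 (0.0705 to 0.153). It was also lower in MI cDC1 than in MI macrophages (log2 difference -2.69 ± 0.90, edgeR adjusted p = 0.0164), but not without any one of MI cDC1 replicates 2 and 4 and MI macrophage replicate 3 (0.052 to 0.0624), and the difference was -3.49 without MI cDC1 replicate 1. The share of all genes called was 10.8% for MI moDCs against macrophages (0 members, 1 with an unadjusted p under 0.05, 1 by DESeq2) and 10.1% for MI cDC2 against moDCs (0 members, 2 with an unadjusted p under 0.05, 1 by DESeq2). It was 26.8% for MI cDC1 against cDC2 (1 member), 26.4% for MI cDC2 against macrophages (2), 36.0% for MI cDC1 against moDCs (3) and 45.4% for MI cDC1 against macrophages (5).

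In SS hearts Hspa8 averaged 4646 ± 604 CPM in cDC2, 4002 ± 938 CPM in cDC1, 3311 ± 279.9 CPM in moDCs and 2784 ± 184 CPM in macrophages (SD, n = 4 each). It was higher in cDC2 than in macrophages (log2 difference 0.74 ± 0.12, edgeR adjusted p = 1.32e-05) and than in moDCs (log2 difference 0.49 ± 0.12, edgeR adjusted p = 0.00538), and higher in cDC1 than in macrophages (log2 difference 0.52 ± 0.12, edgeR adjusted p = 0.000723). These 3 calls held without any 1 library. Its neighbours cDC2 and cDC1, and moDCs and macrophages, were not called apart. Hspe1 was higher in cDC1 than in macrophages (log2 difference 1.02 ± 0.21, edgeR adjusted p = 0.000166), and in cDC2 than in macrophages (log2 difference 0.85 ± 0.21, edgeR adjusted p = 0.00173). Hspd1 was higher in cDC1 than in macrophages too (log2 difference 0.59 ± 0.13, edgeR adjusted p = 0.000582). Both genes of the mitochondrial chamber were thus higher in SS cDC1, at 204 ± 43.8 CPM for Hspd1 and 111 ± 28.0 CPM for Hspe1, than in SS macrophages, at 136 ± 13.1 CPM and 54.7 ± 19.3 CPM.

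The other 5 SS calls did not hold without some single libraries. Dnaja1 was higher in cDC2 than in moDCs (log2 difference 0.69 ± 0.21, edgeR adjusted p = 0.0252), but not without any one of SS cDC2 replicates 1 and 2 and SS moDC replicates 3 and 4 (adjusted p of 0.0537 to 0.0968). Against macrophages Dnaja1 was higher in cDC2 (log2 difference 0.64 ± 0.21, edgeR adjusted p = 0.0177), but not without SS cDC2 replicate 2 or SS macrophage replicate 3 (0.0734 and 0.0667). Hspd1 was higher in cDC2 than in macrophages (log2 difference 0.39 ± 0.13, edgeR adjusted p = 0.0214), but not without SS cDC2 replicate 2 or 4 or SS macrophage replicate 3 (0.0586 to 0.0789). Over moDCs, cDC1 had more Hspd1 (log2 difference 0.38 ± 0.13, edgeR adjusted p = 0.0266) and more Hspe1 (log2 difference 0.59 ± 0.21, edgeR adjusted p = 0.0276). The Hspd1 call was lost without any one of SS cDC1 replicates 2 and 4 and SS moDC replicates 3 and 4 (0.0718 to 0.162), and the Hspe1 call without any one of SS cDC1 replicates 1 and 2 and SS moDC replicates 3 and 4 (0.0683 to 0.108). The share of all genes called was 12.9% for SS moDCs against macrophages (0 of the 10 members, 2 with an unadjusted p under 0.05, 0 by DESeq2) and 15.4% for SS cDC2 against moDCs (2 members). It was 28.2% for SS cDC1 against cDC2 (0 members, 0 with an unadjusted p under 0.05, 0 by DESeq2), 35.2% for SS cDC2 against macrophages (4 members), 33.3% for SS cDC1 against moDCs (2 members) and 42.8% for SS cDC1 against macrophages (3 members). No count of members lay more than 1 gene above what the share of all genes gives for 10 genes. With the replicate number as a block, SS cDC2 against macrophages, whose same-numbered libraries deviated together, had 6 calls in place of 4, with Hspa1b (0.47, adjusted p = 0.00156) and Dnajb1 (0.57, adjusted p = 0.00704) added.

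The Hspa1 copies ran in nearly the same order of replicate numbers in all 4 MI populations, a pattern noticed in these values and then tested on them. The labels do not say that a number marks a shared heart, day or preparation. Within MI, number 2 was the lowest and number 3 the highest of the numbers for Hspa1a in 4 of 4 populations and likewise for Hspa1b. The mean of Hspa1b over the populations was 132 CPM for number 2, 311 CPM for number 1, 331 CPM for number 4 (3 populations) and 540.3 CPM for number 3. In a test of a number effect within MI (edgeR, block terms for numbers 2 to 4 against number 1), 5 of the 13039 genes were called, which is 0.0383%. Hspa1b (edgeR adjusted p = 2.77e-10) and Hspa1a (1.83e-07) had the smallest p of all genes. The other 3 were the interferon gene Ifit2 (0.00499), the translation factor gene Eif5 (0.0114) and Arl5b (0.0381). None of the other 8 members was called within MI, with Dnajb1 the nearest (0.541).

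Within SS the numbers separated more genes. Number 3 was the lowest in 4 of 4 populations for Hspa1a, Hspa1b, Dnajb1, Hsph1, Hspb1 and Hsp90aa1. Dnajb1 averaged 685 CPM over the populations in number 3, against 1593 to 1732 CPM in the other numbers. Hspb1 averaged 11.5 CPM in number 3 and 41.0 to 48.4 CPM in the others. The test called 681 genes (5.22%) within SS, 8 of the 10 members among them, with Hspa1a and Hspa1b at the same edgeR adjusted p of 1.92e-06. Hspb1 (0.0698) and Hspd1 (0.494) were not called. Hspa1b still had at most 797 CPM in any MI library, against 1114 to 1824 CPM in SS number 3. When 1 population was left out, 2 to 3 genes were called within MI and 114 to 1045 within SS with 5 to 8 members. The SS count was 114 genes without macrophages, 141 without moDCs, 163 without cDC2 and 1045 without cDC1.

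**Figure D3:**
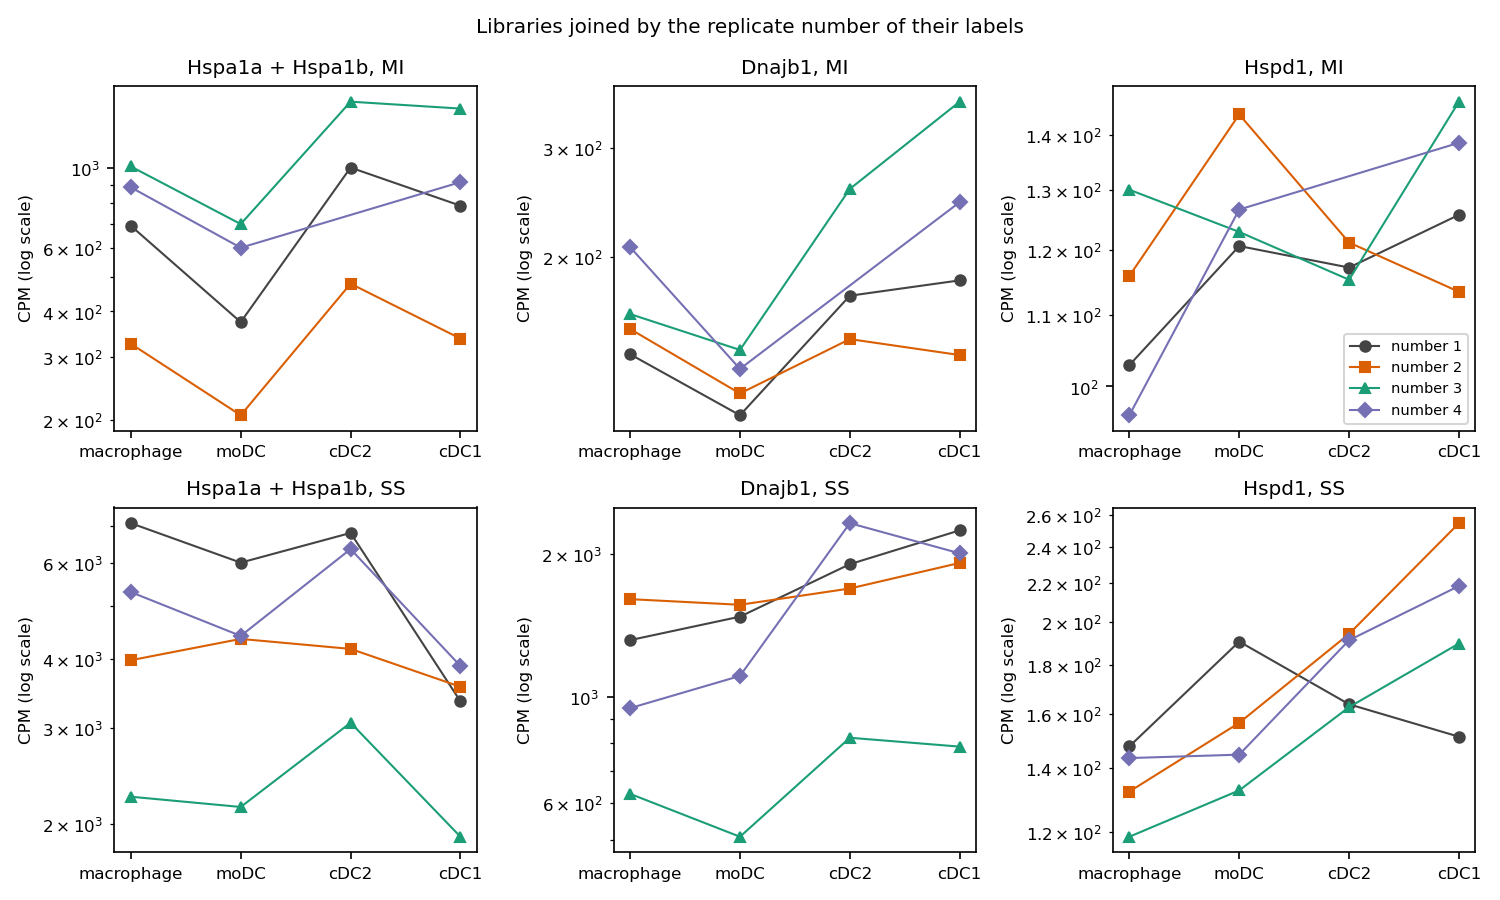
CPM (log scale) of Hspa1a plus Hspa1b, Dnajb1 and Hspd1 in the 4 populations, with lines joining libraries of one replicate number, MI in the top row and SS in the bottom row. Number 2 runs lowest for the summed Hspa1 copies in MI and number 3 in SS, while the Hspd1 lines cross.

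The balance between the 2 Hspa1 copies also moved. The ratio of Hspa1b to Hspa1a CPM averaged 0.481 ± 0.0861 in MI and 0.901 ± 0.0962 in SS macrophages, 0.603 ± 0.0447 in MI and 1.09 ± 0.125 in SS moDCs, 0.793 ± 0.111 in MI and 1.37 ± 0.0908 in SS cDC2, and 1.13 ± 0.0583 in MI and 1.39 ± 0.0883 in SS cDC1 (SD, n = 4 each, MI cDC2 n = 3). In each population every MI ratio lay below every SS ratio. In both states the mean ratio was lowest in macrophages and next in moDCs, while SS cDC2 (1.29 to 1.47) and SS cDC1, whose lowest ratio was 1.31, overlapped. Of the 75-base words in the annotated Hspa1a transcripts, 61.7% also occur in another gene, mostly Hspa1b (52.7%), and 55.8% of those of Hspa1b occur in Hspa1a. The deposited entry for reads without a unique alignment stood at 0 in every library, which does not tell whether such reads were removed or counted. How the counting treated such reads is unknown here, so the split between the copies is uncertain. Summed as 1 gene, the copies had log2 changes of -2.68 ± 0.49, -3.17 ± 0.50, -2.35 ± 0.54 and -1.86 ± 0.47 (MI minus SS) in macrophages, moDCs, cDC2 and cDC1. No pair of populations within a state was called for the sum, in a fit that took no account of the replicate number. Shared words also touch Hspa8 (62.4%), Hspb1 (46.4%, with the pseudogene Hsp25-ps1), Hsp90aa1 (45.4%), Hspd1 (31.0%), Hspe1 (29.1%) and Dnaja1 (24.6%), through other loci, processed pseudogenes among them, and not Dnajb1 or Hsph1 (0% each).

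**Figure D4:**
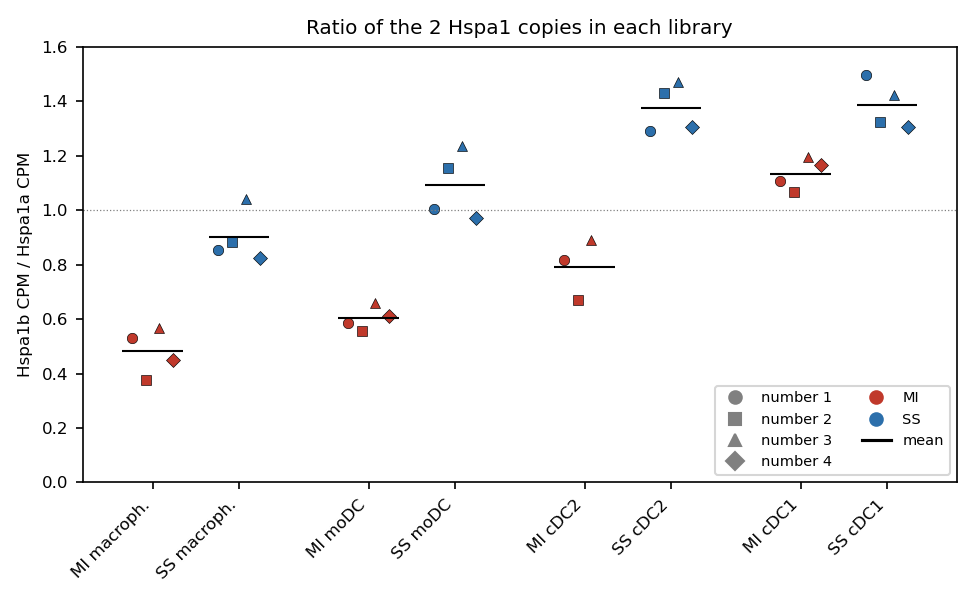
Ratio of Hspa1b to Hspa1a CPM in each library, MI in red left of SS in blue for each population, with marker shapes for the replicate number and a line at the group mean. MI points lie below SS points within each population, with means of 0.481 in MI and 0.901 in SS macrophages and of 1.13 in MI and 1.39 in SS cDC1.

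Other genes of the heat shock and folding pathways, from lists chosen with earlier results of these data known, are given by counts and values. With edgeR adjusted p under 0.05 as the call, of 15 other stress-inducible chaperones and co-chaperones, 0 rose after infarction in any population (1 with an unadjusted p under 0.05 in macrophages and 1 in cDC2, 0 by DESeq2) and 3, 3, 5 and 5 fell in macrophages, moDCs, cDC2 and cDC1, with list medians of -0.10, -0.40, -0.64 and -0.62 on the log2 scale. Bag3, the nucleotide exchange factor that Hsf1 induces and that sends HSP70 clients to autophagy, fell in all 4: it averaged 31.6 ± 10.9 CPM in MI and 277 ± 161 CPM in SS macrophages (SD, n = 4 each), and its log2 change was -3.13 ± 0.58, -3.39 ± 0.59, -3.14 ± 0.66 and -3.16 ± 0.59 in the same order. The J-domain gene Dnajb4 fell in moDCs (-1.64 ± 0.31), cDC2 (-1.54 ± 0.35) and cDC1 (-2.81 ± 0.37) whichever 1 library was left out, though in cDC2 not against SS numbers 2 and 3 alone (-1.11, edgeR adjusted p = 0.08). Of the 3 calls of this list in macrophages, 1 (Bag3) passed without MI replicate 1, 2 or 3, without SS replicate 1 or 2, or against SS numbers 2 and 3 alone, where Dnajb4 and Hspa1l did not. Against SS numbers 2 and 3 alone 3 of the 5 in cDC2 and 4 of the 5 in cDC1 passed. The proteasome adaptor Zfand2a fell in cDC2 (-1.34 ± 0.27) and cDC1 (-2.15 ± 0.25), and the polyubiquitin gene Ubb in cDC2 (-0.64 ± 0.14). Serpinh1, the collagen chaperone of the endoplasmic reticulum that fibroblasts and mural cells also make, averaged 0.0246 ± 0.0493 CPM in MI and 10.9 ± 8.34 CPM in SS cDC1 (SD, n = 4 each), beside 8 fibroblast markers that summed to 1.30 to 2.88 CPM in MI and 14.6 to 56.1 CPM in SS cDC1. The part of such cells in its level was not tested.

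Constitutive partners moved little. Of 18 other constitutive cytosolic chaperones, 0 rose and 1, 1, 2 and 1 fell in the same order, with list medians of -0.08, 0.03, -0.15 and -0.03. Hsp90ab1, the constitutive HSP90, fell in all 4 populations, with changes of -0.43 ± 0.12, -0.54 ± 0.12, -0.61 ± 0.13 and -0.63 ± 0.12 on the log2 scale, though in macrophages it did not pass without SS replicate 1 (edgeR adjusted p = 0.101) or 4 (0.0592), or against SS numbers 2 and 3 alone (-0.19, edgeR adjusted p = 0.332). The other call in cDC2, Cct5, did not pass without MI replicate 1, without SS replicate 2 or against SS numbers 1 and 4 alone. Among the 8 other mitochondrial chaperones and proteases, such as Hspa9 and Lonp1, 0 passed in either direction in any population, and medians ran from 0.02 to 0.11. An unadjusted p under 0.05 was reached by 1 of the 8 in macrophages and by 0 elsewhere, and DESeq2 called 0. Of 12 endoplasmic reticulum chaperones, 5 fell in cDC2, among them Hspa5 (BiP, -0.58 ± 0.12) and the disulfide isomerase Pdia3 (-0.45 ± 0.10), and 0 fell elsewhere (0 with an unadjusted p under 0.05 except 1 in cDC1, where DESeq2 called 1). Of the 5 in cDC2, 2 passed without MI replicate 1 or against SS numbers 1 and 4 alone, where Dnajb9, Pdia4 and Sdf2l1 did not, and 3 passed without SS replicate 2. In macrophages 1 of the 12, Hyou1, rose (0.47 ± 0.13), but not with MI replicate 1 or 2 or SS replicate 1 or 2 left out (0.0599 to 0.112), nor against SS numbers 1 and 4 (0.123) or 2 and 3 (0.052) alone.

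Hsf1 itself was not called. It averaged 22.0 ± 4.59 CPM in MI and 26.2 ± 7.55 CPM in SS macrophages and 23.1 ± 2.32 CPM in MI and 30.0 ± 4.11 CPM in SS cDC1 (SD, n = 4 each). Of the 3 listed factors and regulators that were tested, Hsbp1, which binds Hsf1 trimers, fell in cDC2 (-0.61 ± 0.14) and cDC1 (-0.51 ± 0.12). A negative change with an unadjusted p under 0.05 was reached by 2 of the 3 in cDC1, 1 in cDC2 and 0 in macrophages and moDCs. Of 11 immediate early genes, which warm digestion is also known to raise, 0 rose by edgeR and 0, 2, 0 and 2 fell in macrophages, moDCs, cDC2 and cDC1, with medians of 0.07, -0.20, 0.09 and 0.11. By DESeq2 1 rose in macrophages and 0 fell in macrophages and cDC2, where 2 and 0 had a negative change with an unadjusted p under 0.05 in edgeR. Jun fell in moDCs (-1.08 ± 0.24) and cDC1 (-1.18 ± 0.24) and Ier5 in moDCs (-0.70 ± 0.15). The other call in cDC1, Egr1, did not pass without any 1 of the 4 MI libraries, without SS replicate 1 or 4, or against SS numbers 2 and 3 alone. The part of digestion in the chaperone levels was not tested.

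**Figure D5:**
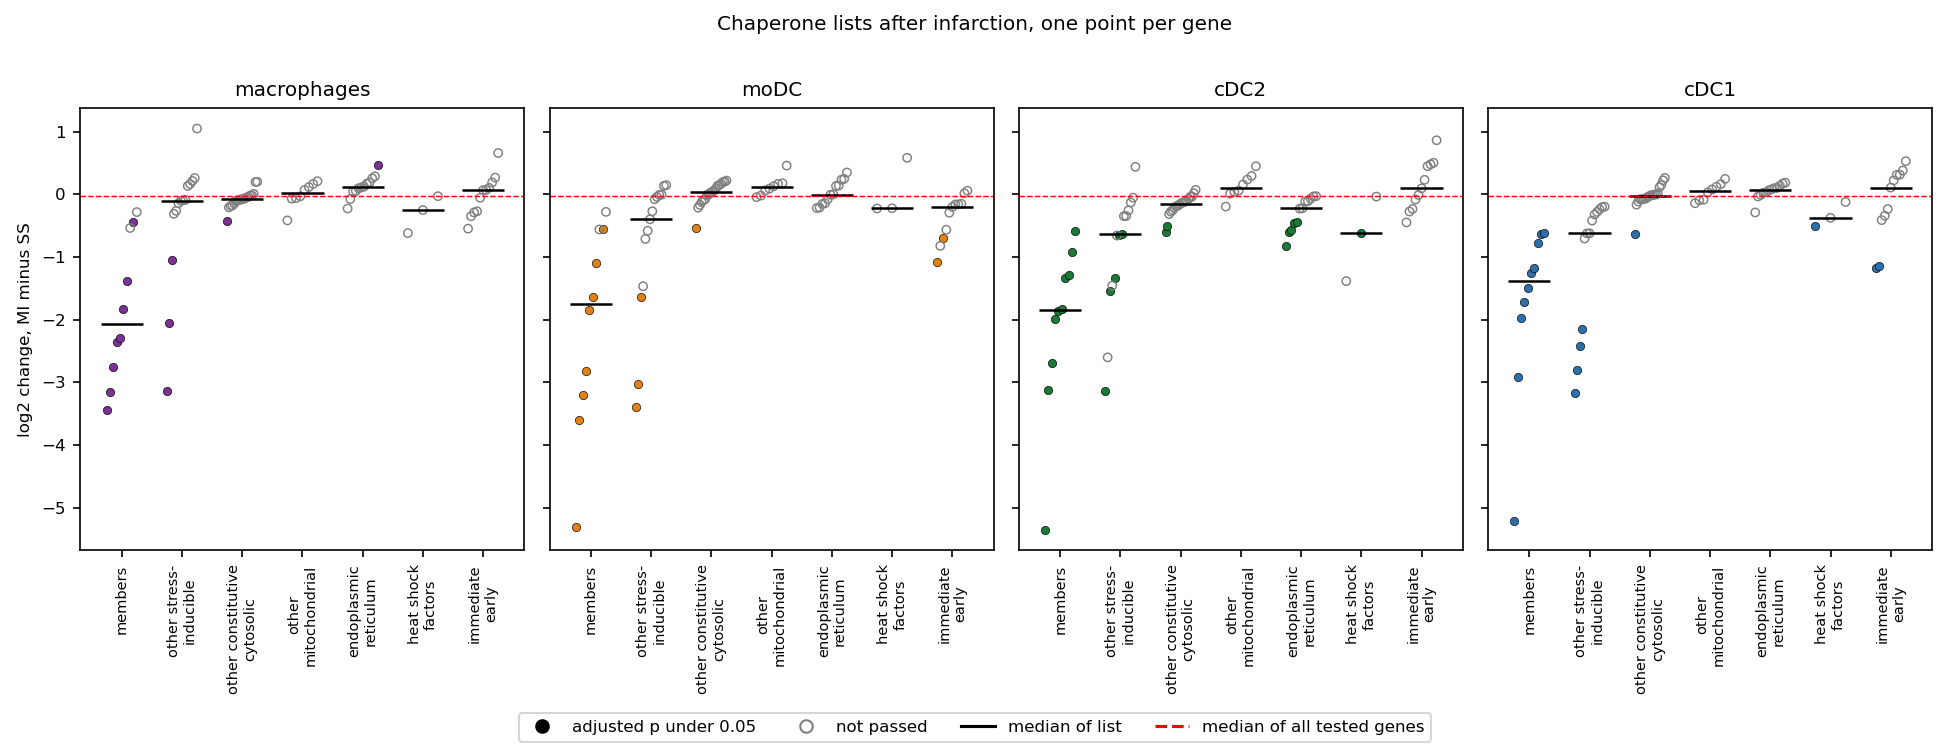
Log2 change (MI minus SS, edgeR) of each gene of the chaperone lists in the 4 populations, with filled points for adjusted p under 0.05, a black line at the median of the list and a dashed line at the median of all tested genes. Not drawn are 5 values of Hspb8 and Serpinh1 with a group mean under 0.5 CPM. The 10 members have medians of -2.07, -1.75, -1.85 and -1.38, and the other mitochondrial list lies at 0.02 to 0.11.

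Genes whose levels ran most like those of the chaperones over the 31 libraries were looked for among the 8030 tested and named genes that averaged 10 CPM or more. For the summed Hspa1 copies these were Bag3 (Pearson r = 0.891 of log2 CPM), Jund (0.837), Ptp4a3 (0.816), Hsp90ab1 (0.802) and Slc5a3 (0.801). Around group means, which takes out the difference between MI and SS, r stayed at 0.68 for Bag3, 0.61 for Slc5a3 and 0.59 for Hsp90ab1, and was 0.39 for Jund and -0.06 for Ptp4a3. For Dnajb1 the nearest were Bag3 (0.898), Hsp90ab1 (0.861), Dedd2 (0.860), Cd207 (0.858) and Jund (0.858), and around group means Bag3 was at 0.91 and the others at 0.33 to 0.47. For Hspd1 they were Hsp90ab1 (0.894), Hspa5 (0.768), Gypc (0.768), Mamdc2 (0.759) and Dedd2 (0.740). Around group means these were 0.65, 0.47, 0.13, 0.03 and 0.02 in the same order. The libraries fall into MI and SS clusters and share replicate numbers, so these values are descriptions. Among the members, Hspa1a and Hspa1b followed each other most closely (0.963 over all libraries, 0.978 around group means), and Hspa1a and Hspe1 hardly did around group means (0.04).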

How the data were processed

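RNA-seq was run on 31 libraries of 4 cell populations sorted from MI or SS mouse hearts. The submitters' processing notes list TopHat2 2.1.0, SAMtools 0.1.18, Trimmomatic 0.35, FastQC 0.11.4 and the mm10 build, and reads were 75 nt long. How reads were counted (tool, gene models, strand) is not given in the sources used. The authors deposited whole-number read counts per gene symbol, not normalized, with 5 entries for reads in no gene, which stayed out of library sizes and tests. Of all entries, 6.42% to 16.9% lay in no feature and 0.857% to 1.21% were ambiguous.

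CPM used TMM factors. Tests were edgeR 4.0.16 quasi-likelihood (robust) in R 4.3.3 with one mean for each of 8 groups, a minimum count of 10 in filterByExpr, and Benjamini-Hochberg adjustment over 13039 genes, with adjusted p under 0.05 as a call. Standard errors are the log2 difference over the root of F. The common dispersion was 0.116. The script was tested on simulated data. Alternatives were upper-quartile factors, DESeq2 1.42.0, no filter, a minimum count of 50, only the groups compared, a replicate block, summed copies, SS subsets and leaving out each library. The test of replicate numbers was added after the values were seen.

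The members and lists were chosen with earlier results of these data known. Named genes were all members, up to 3 called genes per list and population by adjusted p (such a gene is given wherever it was called, and not every one is printed), and the 5 genes most like the Hspa1 copies, Dnajb1 and Hspd1. The main tests used no pairing, which enters only through the replicate block as an alternative. Same-numbered libraries were regarded as pairs only where every pair's deviations correlated above 0.1. This held for SS macrophages with moDCs (r of 0.119 to 0.203) and with cDC2 (0.109 to 0.160). With the block, SS moDCs against macrophages still had 0 members called. Intervals of counts are not given, and the level of 3 reads covers counting error only. Exonic lengths and positions are from GENCODE M21 and promoter windows from RefSeq on GRCm38.p6. No set test was run.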

Additional observations from a re-analysis of the deposited data

How the results depend on the processing

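No MI against SS change and no called difference of the 10 genes changed sign; 80 values between populations that were not called did. Of 742 values of the MI against SS changes under alternatives, 705 kept direction and call, 36 lost the call and 1 gained it. Of 1744 values between populations, 44 lost and 51 gained the call, and of 614 values of other listed genes 544 kept direction and call and 70 lost it. Leaving out 1 library gave 675 to 869 genes and 7 to 8 members called in macrophages, 407 to 741 and 7 to 8 in moDCs, 882 to 1550 and 9 to 10 in cDC2, and 810 to 1124 and 8 to 10 in cDC1. Between SS populations it gave 1183 to 1680 genes and 0 to 1 members for moDCs against macrophages, 1478 to 2265 and 1 to 2 for cDC2 against moDCs, 3194 to 3517 and 0 to 2 for cDC1 against cDC2, 3999 to 4538 and 2 to 4 for cDC2 against macrophages, 3931 to 4169 and 0 to 3 for cDC1 against moDCs, and 5066 to 5322 and 3 to 3 for cDC1 against macrophages. Between MI populations, in the same order of pairs, it gave 989 to 1337 and 0 to 1, 792 to 1174 and 0 to 0, 2890 to 3252 and 0 to 1, 2577 to 3216 and 0 to 1, 4189 to 4303 and 1 to 4, and 5419 to 5651 and 4 to 5. With no filter MI cDC2 against macrophages had 1 member called, and DESeq2 called 1 for MI moDCs against macrophages and 1 for MI cDC2 against moDCs. With only the groups compared, SS cDC2 against moDCs had 1202 genes in place of 2008 and MI cDC2 against moDCs 2188 in place of 1323, and members called were 1 for SS cDC1 against moDCs and 2 each for MI moDCs against macrophages, MI cDC2 against moDCs and MI cDC1 against cDC2. With the replicate block, members called were 4, 3, 6 and 6 for SS cDC2 against moDCs, cDC1 against cDC2, cDC1 against moDCs and cDC1 against macrophages, and 3, 3, 3, 5 and 5 for MI moDCs against macrophages, cDC2 against moDCs, cDC1 against cDC2, cDC2 against macrophages and cDC1 against moDCs. Over all genes, same-numbered libraries of these pairs had r of -0.0578 to 0.171. The number test nevertheless called 8 members within SS and 2 within MI, and what a number marks is unknown. MI and SS libraries of one number had r of -0.0472 to 0.0655, and the block moved no count of MI against SS calls by over 1.5 times. Against SS numbers 2 and 3 alone 5 members were called in macrophages. Without MI number 2, an alternative chosen after seeing the data, 628, 378, 829 and 714 genes were called in macrophages, moDCs, cDC2 and cDC1, in place of 963, 631, 1440 and 1158. The calls of Hspa8 in macrophages, Hsp90aa1 in moDCs, cDC2 and cDC1, and Hspe1 in cDC1 were then lost. With only the groups compared, Hsp90aa1 in macrophages (edgeR adjusted p = 0.0509) and Hspa1a in cDC1 (0.0533) lost their infarction calls. Hspe1 in moDCs gained one (0.032). With no filter Hsp90aa1 in moDCs lost its call (0.0519). The number test without macrophages, moDCs, cDC2 or cDC1 called 2, 2, 2 and 3 genes within MI and 114, 141, 163 and 1045 within SS, and 5 members within SS without macrophages and 5 without cDC2. The cause of these moves was not tested; fewer libraries enter each fit that leaves some out. Hspb1 rested on 0 to 89 reads in MI libraries, so its changes have the largest errors.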
